A study of Ovis aries with 17 samples.

Results

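*LTF* (lactoferrin) and *HBB* (beta-globin) were followed on all 17 arrays of a sheep study of sorted and cultured immune cells. They are 2 of the 278 genes with a symbol, and 2 of 11311 genes or gene identifiers in all, that were kept by the filter on dim probes. They were chosen by their measured levels across spleen, blood and culture, so their levels by source are given here as a description, with no test. The study asked which sheep cell subsets correspond to which human and mouse mononuclear phagocytes. RNA of each sample was hybridised to 1 one-colour array of a custom ovine design, so each value below is the brightness of 1 spot.

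The cells came from sheep, described by the study as Prealpe females for the blood collection, and fall into 3 sources. From spleen, B lymphocytes (B, 4 arrays) were sorted with an antibody to ruminant B cells and macrophages (MP, 3 arrays) with an antibody to CD14. From low-density blood mononuclear cells, plasmacytoid dendritic cells (pDC, 3 arrays) were sorted, together with dendritic cells (DC) positive for CD11c, free of the B, CD11b, TCR1 and CD45RB stains, and either low for CADM1 and high for CD172 (XCR1- DC, 3 arrays) or the converse (XCR1+ DC, 1 array, with no replicate). From culture, MoDC (3 arrays) were grown independently with GM-CSF, and the study's text names bone marrow cells as their origin. No cell type was taken from more than 1 source, so source and cell type cannot be told apart. Some samples combine RNA from several animals, where yields were small, and the deposited names call XCR1- DC replicate 2 and the XCR1+ DC array pools, so an array is not always 1 animal and p-values measure the spread between arrays.

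Lactoferrin is an iron-binding glycoprotein stored in the secondary granules of neutrophils and secreted into milk and other fluids, where it withholds iron from microbes. Beta-globin is the beta chain of adult haemoglobin, made by erythroid precursors and still carried as RNA by young red cells. Neither is a classical marker of lymphocytes or dendritic cells.

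Each gene was read by 1 probe of 60 bases, shown because every value below rests on it. The deposited annotation gives both probes through a RefSeq transcript, without a genome build or a place in the transcript.

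LTF probe: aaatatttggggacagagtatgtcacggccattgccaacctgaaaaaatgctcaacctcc

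HBB probe: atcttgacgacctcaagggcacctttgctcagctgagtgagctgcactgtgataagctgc

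The GC content was 45% for the *LTF* probe and 53.3% for the *HBB* probe, against a median of 43.3% over 15060 probes, whose 5th and 95th percentiles were 35% and 55%. No other probe of the array shared 14 bases in a row with either, on either strand. Whether the *HBB* probe also reads other beta-like globins was not tested, because their sequences were not used here.

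Levels are given as log2 of the background-corrected spot signal after subtraction of that array's 75th percentile, so 0 is a signal at that percentile. The 75th percentile lay between 194 and 688 signal units, and 61.1% to 80.2% of spots were flagged by the scanner software as well above background. Of the genes behind the sorts, *CD14* had a mean level of 6.12 in MP against -1.16 in B, and *CADM1* lay at 2.45 on the XCR1+ DC array against -1.54 in XCR1- DC, but *SIRPA*, which encodes CD172, was well above background on 0 of 17 arrays and separated no subset. *XCR1*, on which no cell was sorted, lay at 2.61 on the XCR1+ DC array against -2.16 in XCR1- DC. *CD14* was also high in MoDC, at a mean of 6.21. Neither member's spot was saturated or flagged as an outlier on any array. In such bulk samples, fewer cells of a type and less RNA per cell cannot be told apart.

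*LTF* was brightest in the cultured cells. The MoDC arrays read 1.54, -0.20 and 0.96, or 598 to 1105 signal units, with a mean of 0.77 ± 0.89 (SD, n = 3). These spots were 305 to 385 times the median negative control of their array and lay at the 73.0th to 86.5th percentile of its probes. The 14 spleen and blood arrays ranged from 10.2 to 130 signal units.

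In spleen, the MP arrays read -2.74, -0.99 and -3.41, with a mean of -2.38 ± 1.25 (SD, n = 3). The B arrays read -5.21, -3.42, -3.48 and -5.94, with a mean of -4.51 ± 1.26 (SD, n = 4), and the lowest, replicate 4, was not well above background. MP replicate 2 was the brightest array outside culture. All 3 MP arrays lay above all 4 B arrays, as for 18.2% of all genes, but the lowest MP value and the highest B value, -3.41 and -3.42, were all but equal.

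In blood, the XCR1- DC arrays read -3.22, -2.19 and -1.97, with a mean of -2.46 ± 0.67 (SD, n = 3), and the XCR1+ DC array read -2.87. The pDC arrays read -4.45, -4.53 and -4.80, with a mean of -4.59 ± 0.18 (SD, n = 3). All 7 blood arrays were well above background, and those of pDC stood below the 4 DC arrays. The 3 XCR1- DC arrays exceeded the 3 pDC arrays for 27.3% of all genes.

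The order of the means was therefore MoDC, MP, XCR1- DC, XCR1+ DC, B and pDC. MP, XCR1- DC and XCR1+ DC overlapped, as did B and pDC, so the order within each of these sets did not exceed the spread between arrays. The mean of MoDC was 8.86-fold that of MP, 9.37-fold that of XCR1- DC, 12.4-fold the XCR1+ DC array, 38.8-fold that of B and 41.1-fold that of pDC. By normexp, another background correction, the same folds were 4.59, 5.19, 5.14, 8.57 and 8.65, and they were 5.998, 7.22, 9.34, 16.0 and 19.3 in the authors' series table. All 3 culture arrays exceeded every spleen and blood array, with a gap of 0.78 between MoDC replicate 2 and MP replicate 2. Such a separation of culture was met by 5.78% of all genes tested, 654 of 11311, and is part of what the gene was chosen for. Without MP replicate 2 the fold of MoDC over MP was 14.4. The gap was 1.76 without MP replicate 2 and 1.95 without MoDC replicate 2, and with all arrays it was 0.27 by normexp and 0.53 in the authors' series table. Spleen and blood did not separate for *LTF*: their means were -3.60 ± 1.62 and -3.43 ± 1.17 (SD, n = 7 each), with full overlap.

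*HBB* ran the other way, bright on blood arrays and at or near background elsewhere. The pDC arrays read -0.17, -2.82 and -2.45, with a mean of -1.81 ± 1.44 (SD, n = 3). The XCR1- DC arrays read -2.88, 0.42 and -0.42, with a mean of -0.96 ± 1.71 (SD, n = 3), and the XCR1+ DC array read 0.83. All 7 blood arrays were well above background, at 29.9 to 485 times the median negative control and 55.1 to 795 signal units.

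The spread within blood was wide. In each replicated blood subset 1 array stood apart, above the other two in pDC (replicate 1) and below them in XCR1- DC (replicate 1). The 2 arrays that the deposited names call pools, XCR1- DC replicate 2 and XCR1+ DC, were the brightest of all 17, and the part of pooling in this was not tested. The study describes these DC sorts from blood cells of several sheep, so the other XCR1- DC arrays may also hold more than 1 animal.

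In spleen, the B arrays read -6.56, -4.63, -5.50 and -6.14, with a mean of -5.71 ± 0.84 (SD, n = 4), and the MP arrays -5.69, -6.68 and -6.34, with a mean of -6.24 ± 0.51 (SD, n = 3). Only B replicate 2, at 10.3 signal units, was well above background among these 7. The MoDC arrays read -7.05, -8.47 and -7.30, with a mean of -7.61 ± 0.76 (SD, n = 3). None of the 3 was well above background, and their signals were 0.978 to 1.26 times the median negative control. The order of B, MP and MoDC thus lies within or near background and cannot be read as an order of expression.

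Because the dimmer sets were mostly below background, folds for *HBB* are lower bounds: the mean of the bright arrays against the mean, per array, of the higher of the dim spot and the lowest signal that was well above background there. Blood as a whole was at least 13.6-fold higher than MP, at least 22.4-fold higher than B and at least 24.9-fold higher than MoDC, n = 7 blood arrays. Against MP, the bound was 8.14-fold for pDC, 14.7-fold for XCR1- DC and 50.9-fold for the XCR1+ DC array. It was 4.60-fold for pDC without replicate 1, and for XCR1- DC 28.6-fold without replicate 1 and 9.13-fold without replicate 2. Every blood array exceeded every spleen and culture array, with a gap of 1.76 between the measured values, which narrows to 1.35 with dim spots at the lowest signal well above background on their array (MP replicate 1 then being the highest). That separation was met by 0.584% of all genes tested, 66 of 11311, and among genes with a symbol by *HBB*, *IRF8* (a transcription factor of dendritic cells), *RPSA* (a ribosomal protein) and *SLPI* (an inhibitor of neutrophil proteases). Bounds and separation hold for the scanner software's background correction. After normexp, with an offset of 50, the mean of blood exceeded that of spleen by less (spleen minus blood -1.93) and that of culture by less (culture minus blood -2.37), both under the bounds above, and the lowest blood array lay 0.016 below the highest spleen array. In the authors' series table the differences were -3.06 and -3.40.

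**Figure D1:**
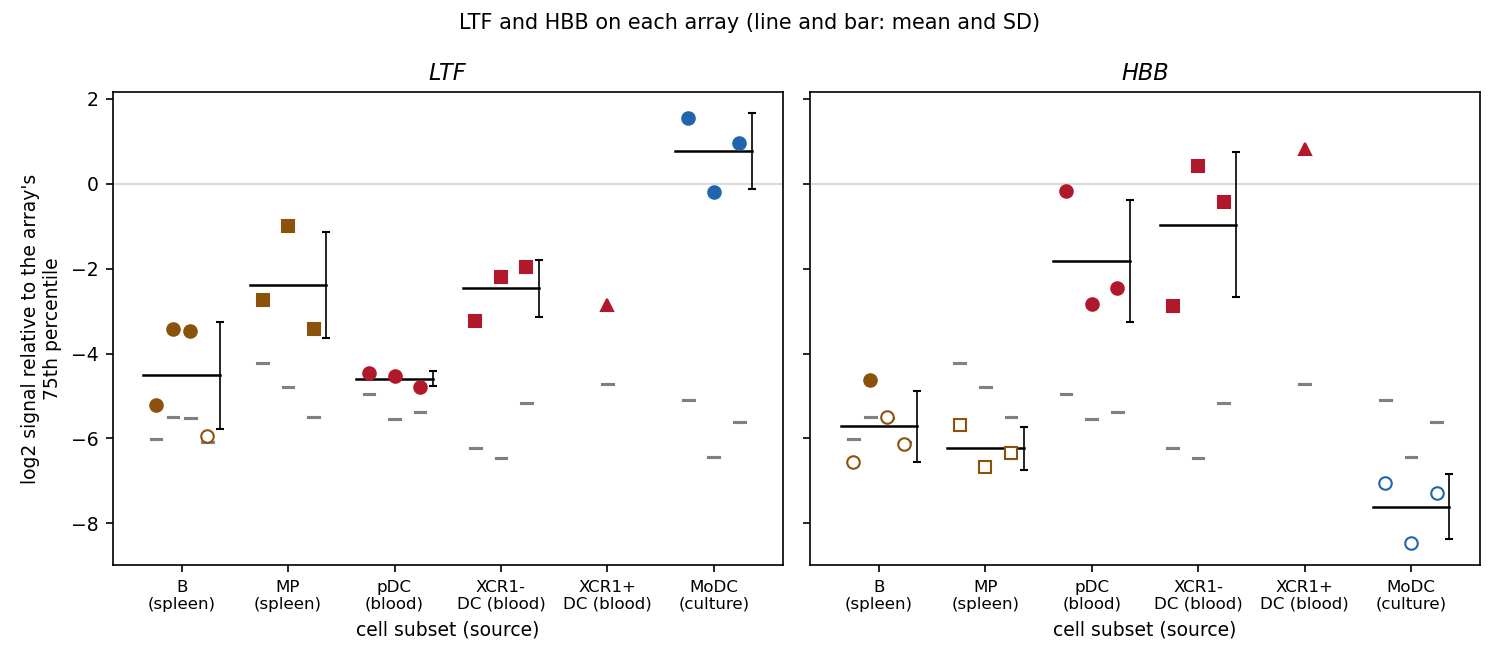
Level of *LTF* (left) and *HBB* (right) on each array, as log2 signal relative to the 75th percentile of the array, by cell subset and source (brown, spleen; red, blood; blue, culture). Filled points were well above background and open points were not, grey ticks mark the lowest signal that was well above background on that array, and black lines and bars give mean and SD. The 3 MoDC arrays lie on top for *LTF*, from -0.20 to 1.54, and the 7 blood arrays for *HBB*, from -2.88 to 0.83.

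The 4 array slides allowed the sources to be compared within a slide. Slides 1 to 3 each held 1 array of B, MP, pDC and MoDC, and slide 4 held B replicate 4 and the 4 DC arrays. For *HBB*, with dim spots at the bound described above, blood lay above spleen by at least 4.96, 1.89, 3.04 and 5.56 on slides 1 to 4, and above culture by at least 4.92, 3.62 and 3.15 on slides 1 to 3. For *LTF*, culture minus spleen was 5.52, 2.00 and 4.41, and culture minus blood was 5.997, 4.33 and 5.76.

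The *LTF* difference between blood and spleen changed sign with the slide. It was -0.48, -2.33 and -1.35 on slides 1 to 3, where pDC stand for blood, and 3.38 on slide 4, where 4 DC arrays stand for blood and B replicate 4 alone for spleen. Slide and cell subset cannot be told apart in this change.

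**Figure D2:**
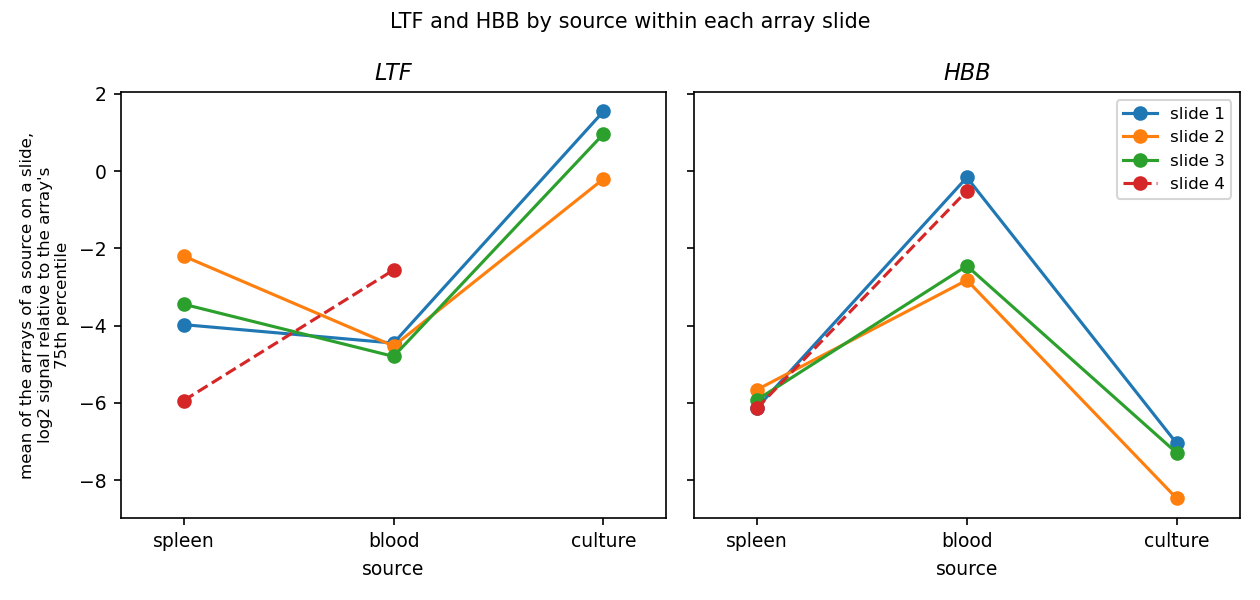
Mean level of *LTF* (left) and *HBB* (right) by source within each of the 4 array slides, as log2 signal relative to the 75th percentile. Each line joins the sources of 1 slide, and slide 4 (dashed) holds other blood subsets than slides 1 to 3 and no culture array. For *HBB* the spleen and culture values are as measured and mostly not well above background. *HBB* is highest in blood on every slide, and *LTF* is highest in culture on slides 1 to 3.

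The genes were chosen by their levels across sources, with earlier results of these data known. The differences inside a source were tested with limma, adjusted over all 11311 genes, and may not be independent of that choice. *LTF* was lower in B than in MP by 2.13 on the log2 scale (SE 0.68, adjusted p = 0.0302), a 4.38-fold difference, in a comparison in which 24.3% of all genes were called at an adjusted p under 0.05 and at least 2-fold. Same-numbered B and MP arrays shared a slide and deviated together, and with the replicate number as a block the difference was -1.66 with an adjusted p of 0.0955 by limma, which ends the call. By normexp it was -0.90 (adjusted p = 0.182), and from the 7 arrays alone -2.13 (0.0865). In the authors' series table the call held with a smaller difference, -1.41 (limma adjusted p = 0.0326). The call was also lost without B replicate 1 (adjusted p = 0.0765), B replicate 4 (0.0876), MP replicate 1 (0.0529) or MP replicate 2 (0.177), with differences of -1.90, -1.66, -2.31 and -1.43.

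*LTF* was lower in pDC than in XCR1- DC by 2.13 (SE 0.73, adjusted p = 0.0492 by limma), a 4.39-fold difference, where 20.3% of all genes were called. Leaving out any 1 of the 6 arrays compared ended this call, with limma adjusted p from 0.0521 to 0.162 and differences from -2.51 to -1.89. So did leaving out B replicate 1 or MP replicate 1, which enter only the shared estimate of spread (adjusted p = 0.0531 and 0.0596). pDC and XCR1- DC lay on different slides, and with the slide as a block the difference was -4.04 with an adjusted p of 0.100. The call was also lost by quantile normalization (adjusted p = 0.0715), by a median shift (0.0678), without the filter on dim probes (0.0620) and by normexp, where the limma difference was -0.74 (0.345). It held with the replicate block (adjusted p = 0.0372), with only the arrays compared (0.00440) and in the authors' series table (-1.42, 0.0485).

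*HBB* did not pass the test within blood: pDC minus XCR1- DC was -0.85 (SE 0.82, limma adjusted p = 0.508), smaller than the SD of either subset. It ranged from -1.81 without XCR1- DC replicate 1 and -1.68 without pDC replicate 1 to -0.16 without XCR1- DC replicate 2. Without pDC replicate 2 it was -0.35, without pDC replicate 3 -0.53, and with the slide as a block -1.42. The last value also rests on B replicate 4 as the only link to slide 4, where its *HBB* spot was not well above background. Within spleen both subsets were mostly below background, so no fold is given for B against MP (adjusted p = 0.700 by limma).

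Markers of several cell types differed along with *LTF* inside each source, among them the macrophage markers on the array, *CD14* and *CSF1R* (the receptor of the macrophage growth factor). They were 2 of the 10 genes of that list, and both were called lower in B than in MP, where 11.4% of all genes were, and lower in pDC than in XCR1- DC, where 10.8% were. *CD14* differed by -7.28 (SE 0.34) and -3.62 (SE 0.36) in these comparisons, with limma adjusted p of 6.35e-09 and 1.31e-05. The summed level of the 2 genes, in units of the 75th percentile, ranged from 0.365 to 115 in spleen, 0.876 to 13.1 in blood and 58.5 to 107.4 in culture. That sum is nearly all *CD14*. In culture *CSF1R* did not go with *LTF*: it read -3.54 in MoDC, below its means in MP (-0.43) and XCR1- DC (-2.86), and culture against spleen and blood differed by 0.22 (SE 0.52, limma adjusted p = 0.765). Of the 5 genes of a conventional DC list that were tested, *FLT3* (a growth factor receptor of DC) and *BATF3* (a transcription factor of DC) were also called lower in B than in MP (-3.51 and -2.36) and lower in pDC than in XCR1- DC (-2.16 and -3.34). *XCR1*, on which no cell was sorted, was called lower in pDC as well. Of the 4 T and NK cell genes tested, 2 were called higher in B than in MP, where 13% of all genes were, and 3 higher in pDC than in XCR1- DC, where 9.5% were. *CD3D* was higher in both comparisons, by 4.38 and 3.90. The 2 pDC genes tested, *TCF4* and *IRF8*, were called in neither comparison. Between pDC and XCR1- DC they differed by 0.48 and 0.57 (limma adjusted p = 0.698 and 0.361). The part of RNA from any of these cell types in the *LTF* differences was not tested.

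On the 14 spleen and blood arrays the Pearson r between *LTF* and *HBB* was 0.19, and on the 7 blood arrays, where both were well above background, it was 0.57. The genes with a symbol most like *LTF*, among 277 over 17 arrays, were *CXCL8* (r = 0.90), a chemokine that attracts neutrophils, *TBA1A* (0.87), an alpha-tubulin, *LPL* (0.87), lipoprotein lipase, *CAST* (0.84), calpastatin, and *EDN1* (0.84), endothelin-1. These values share the arrays, their slides and the high culture group, and are a description. On the 14 arrays without culture, the r of *LTF* was 0.79 with *CXCL8*, 0.76 with *CD14*, 0.71 with *LYZ* (lysozyme; 0.37 over 17 arrays) and -0.77 with *CD3D*, a chain of the T cell receptor complex.

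Those most like *HBB* were *IRF8* (r = 0.87), *RPL10* (0.79), a ribosomal protein, *SFN* (0.76), *SLPI* (0.76) and *TNNC2* (0.73), a troponin. Within the 7 blood arrays the r of *HBB* was 0.18 with *IRF8* and -0.51 with *SLPI*, so the likeness to these 2 genes was not present among the blood arrays. Among all probes, one without a gene name here, A_70_P061046, followed *HBB* most closely (r = 0.97 over 17 arrays). It ranged from -3.90 to 1.16 in blood, where all 7 arrays were well above background, from -6.70 to -3.51 in spleen, with 4 of 7, and from -7.25 to -5.57 in culture, with none.

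**Figure D3:**
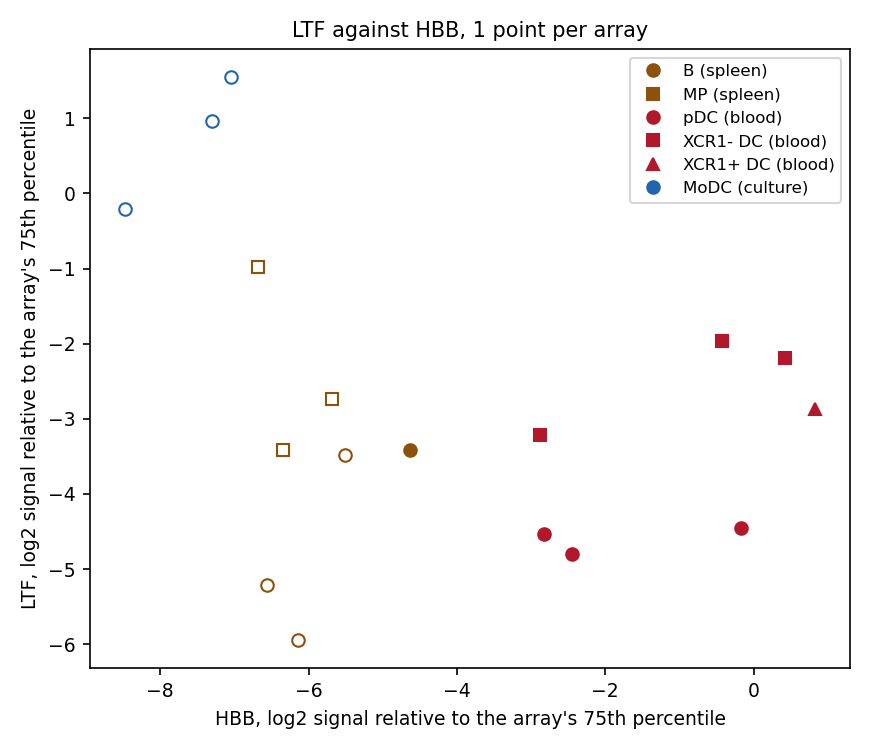
*LTF* against *HBB*, each as log2 signal relative to the 75th percentile, with 1 point per array and open points where *HBB* was not well above background. Culture arrays (blue) sit at the upper left, blood arrays (red) at the right and spleen arrays (brown) between -6.68 and -4.63 for *HBB*. Within blood, pDC lie below the DC arrays for *LTF* across a like range of *HBB*.

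Few companions of *HBB* were on the array. Of the 47 genes of an erythroid list, 3 had a named probe: *HBB*, *CA1* (carbonic anhydrase I of red cells) and *UROD* (an enzyme of haem synthesis that most cells use). *CA1* was not well above background on any of the 14 spleen and blood arrays, and it read -0.73 ± 0.60 in MoDC (SD, n = 3), where *HBB* was at background. *UROD* had means between 2.38 and 3.87 in all subsets. *UROD* was not called between spleen and blood, where 10.1% of all genes were called, and it was called higher in culture than in spleen and blood, where 13.2% were. *CA1* passed the filter through the MoDC arrays alone, so its difference from the other subsets is no independent result. With *CA1* at background on these arrays, the list holds 1 measured companion of *HBB* between spleen and blood, *UROD*. No gene of an 8-gene platelet list had a named probe.

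T and NK cell markers were higher in blood than in spleen as a mean over subsets. Of 12 genes of that list 5 were on the array and 4 were tested (*CD3D*, *CD3E*, *CD247* and *GNLY*), and all 4 were called lower in spleen than in blood, where 5.29% of all genes were. Their median difference was -2.49. All 4 had their highest mean in pDC. *CD3D* was lower in XCR1- DC (-0.67) than in B (2.26), and *CD3E* was alike in both (1.57 and 1.37). *CD247* and *GNLY* were higher in XCR1- DC (-0.86 and -0.08) than in B (-1.50 and -3.23). The summed level of the 5 genes ranged from 1.09 to 9.49 in spleen, 2.84 to 49.2 in blood and 0.479 to 1.35 in culture. Within the 7 blood arrays the r of *HBB* with the 4 genes was negative for each, from -0.64 for *GNLY* to -0.31 for *CD3E*. Over the 14 spleen and blood arrays the r of *HBB* was 0.066 with *CD3D*, 0.46 with *CD3E*, 0.56 with *CD247* and 0.62 with *GNLY*. The part of T and NK cell RNA in the *HBB* differences was not tested.

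For *LTF*, 7 other genes of a 49-gene list of neutrophil granule and neutrophil genes were measured. In culture against spleen and blood, 5 of the 7 were called higher (13.2% of all genes) and 1 lower (20.8%), with a median difference of 6.50 against -0.28 over all genes. Those higher were the cathelicidins *CATHL1B* (7.10, SE 2.16), *CATHL3* (7.25, SE 1.42), *SC5* (4.47, SE 1.22) and *BAC5* (6.50, SE 1.67), antimicrobial peptides of neutrophil granules, and *CXCL8* (9.79, SE 0.72), which is a secreted chemokine and no granule protein. Their limma adjusted p ranged from 1.21e-07 for *CXCL8* to 0.0163 for *CATHL1B*. These differences and the median are as measured and not exact, because some spleen and blood spots were not well above background. Each cathelicidin was well above background on 2 of 3 MP and 2 of 3 pDC arrays, and *CATHL3* and *BAC5* on 1 of 4 B arrays. *CXCL8* was so on 2 of 4 B and 1 of 3 pDC arrays. *CATHL3* passed the filter through the MoDC arrays alone, so its call is no independent result. *SLPI* was at least 5.50-fold lower, a bound since none of the 3 MoDC arrays was well above background, and *LYZ*, which macrophages also make in quantity, differed by -0.43 (SE 0.43, adjusted p = 0.443 by limma).

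Outside culture, the cathelicidins varied widely between arrays of 1 subset. *BAC5*, for instance, read 0.02 in B replicate 3 but -7.36 to -6.74 in the other B arrays, and 1.42, -4.70 and -0.91 in the XCR1- DC arrays. In MoDC the 4 had SDs of 0.56 to 0.88, against 0.89 for *LTF* (n = 3). The 4 probes moved together (r from 0.95 to 0.97 between pairs over 17 arrays) and shared runs of at most 12 of 60 bases, so whether 1 transcript reached several probes was not tested. On the 14 arrays without culture, *LTF* had an r of 0.25 to 0.33 with them, lower than its r of 0.79 with *CXCL8*. Between spleen and blood 2 of the 7 genes were called. *LYZ* was higher in spleen (1.65, SE 0.38), as 4.84% of all genes were. That is a difference of means over subsets, with 7.49 in MP, 5.40 in XCR1- DC, 1.03 in B and -0.17 in pDC. *SLPI* was lower in spleen by 2.57 as measured (SE 0.26). This is no exact difference, since only 1 of the 3 MP arrays was well above background.

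**Figure D4:**
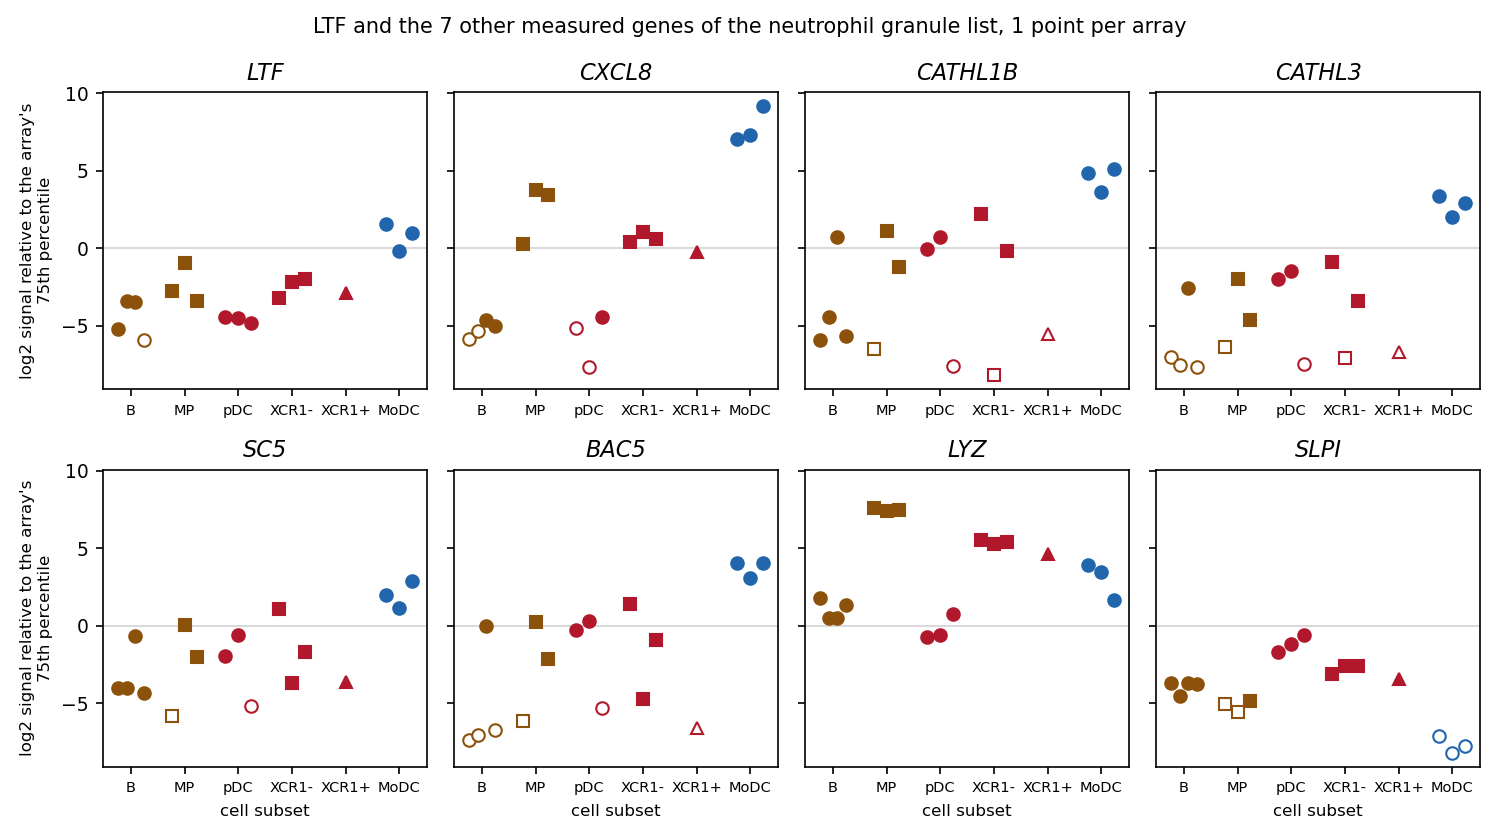
*LTF* and the 7 other measured genes of the neutrophil granule list on each array, as log2 signal relative to the 75th percentile, by cell subset (brown, spleen; red, blood; blue, culture; open points not well above background). The MoDC arrays are the highest for *LTF*, *CXCL8* and the 4 cathelicidins, and the lowest for *SLPI*, where none of them was well above background. Outside culture the cathelicidins differ widely between arrays of 1 subset.

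Other genes of the roles of *LTF* were few. Of 31 iron handling genes, *FTH1* (ferritin heavy chain), *SLC11A1* (an iron transporter of phagosomes) and *BMP6* (an inducer of hepcidin) were tested beside *LTF*. In culture *SLC11A1* was higher by 3.35 (SE 0.57, limma adjusted p = 0.000325) and *BMP6* lower (-1.95, SE 0.50, adjusted p = 0.00615), while *FTH1* differed by 0.89 (SE 0.24), under 2-fold. Neither level was particular to culture: *SLC11A1* had a mean of 5.46 in MoDC and 6.17 in MP, and *BMP6* of -5.37 and -5.75. No array read *CP* (ceruloplasmin) well above background. Of a 19-gene milk and secretory epithelium list, 7 were on the array with *LTF*. Besides *LTF* only *CSN3* (kappa-casein) was kept by the filter, and it was called in no comparison. *LALBA* and *CSN1S1*, the milk proteins alpha-lactalbumin and alpha-S1-casein, were not well above background on any of the 17 arrays.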

How the data were processed

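The authors scanned the arrays with Agilent Feature Extraction (version 10.7.3.1 for 12 arrays, 10.10.1.1 for 5, per the file headers). Those 5 are the arrays of slide 4, that is B replicate 4 and all DC arrays except pDC. Software version and slide thus cannot be told apart, nor can version and subset between pDC and the other DC. The deposited files give spot intensities on a linear scale, background-corrected but not normalized between arrays, and flags scored 0 or 1. The deposited series table, on a log2 scale by an unstated method, served as an alternative and was matched to arrays (r from 0.969 to 0.988). Control spots (536) and 273 outlier spots were left out. A probe was kept if, in at least 1 subset, over 50% of its spots exceeded background on each array, and the probe with the highest sum stood for a gene. The files, or a RefSeq table (ARS-UI_Ramb_v3.0) joined on accessions, gave symbols for 3.02% of probes. Group means were fitted to all 17 arrays with limma 3.58.1 in R 4.3.3 (Benjamini-Hochberg). The single XCR1+ DC array entered no tested comparison. Called means an adjusted p under 0.05 and at least a 2-fold difference. Spleen against blood compares the mean of B and MP with that of pDC and XCR1- DC, and culture is set against all 4. The number of arrays limits the precision. The members and lists were chosen with earlier results of these data known. Named were both members, all measured genes of the erythroid, granule, iron, milk and platelet lists, the 5 most like genes, and markers where they touch a result. Same-numbered B and MP arrays deviated together (r = 0.55, 0.29 and 0.58 over genes) and were taken as paired by slide, and pDC and XCR1- DC were not (r from -0.11 to 0.03). The fit was tested on simulated data.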

Additional observations from a re-analysis of the deposited data

Results flagged for a closer look

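Among 17 quantities examined over the 4 B arrays, of which chance alone sets apart about 5%, 4 had 1 array far from the others, none of them *LTF* or *HBB*. B replicate 3 stood above the other B arrays for the cathelicidins *CATHL3*, *SC5* and *BAC5*, with a gap of 0.877, 0.920 and 0.915 of the whole range. B replicate 2 stood below the others for *SLPI*, with a gap of 0.879 of the range. The 3 cathelicidins vary together, so they are not independent of each other.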

How the results depend on the processing

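With settings changed one at a time (scaling, background correction, filter, series table, slide or replicate block, arrays in the fit), 106 of the values so obtained stayed on the same side of the threshold or within the spread between arrays, 9 lost the call, 13 moved and 1, the *HBB* gap, went from above to below 0. Of the 106, 3 changed sign, none of them a call: *LTF* spleen minus blood (-0.17 as reported) was 0.12 in the series table and 0.19 within slides, and ranged from -0.60 to 0.22 when 1 array was left out, and *HBB* B minus MP (0.53) was -0.16 by normexp. Normexp, with the local background of 14 spots beside bright patches replaced after seeing the data, compressed low signals and gave 2.69 for *LTF* culture minus blood (4.20 as reported), -1.93 for *HBB* spleen minus blood (-4.86), -2.37 for *HBB* culture minus blood (-6.54) and -0.016 for the *HBB* gap. The series table gave -3.06 and -3.40 for the 2 *HBB* differences, and the mean within slides 5.36 for *LTF* culture minus blood. *LTF* B minus MP was -0.90 by normexp (limma adjusted p = 0.182), -1.66 with the slide as a block (0.0937), -1.66 with the replicate block that pairs B and MP (0.0955) and -2.13 from those 7 arrays alone (0.0865). It ranged from -2.65 to -1.43 when 1 array was left out. *LTF* pDC minus XCR1- DC was -2.01 by quantile normalization (limma adjusted p = 0.0715), -2.04 by a median shift (0.0678), -0.74 by normexp (0.345), -2.13 without the filter (0.0620) and -4.04 with the slide as a block (0.100), and ranged from -2.51 to -1.89 when 1 array was left out. The numbers shared by pDC and XCR1- DC do not pair them, and with the replicate block their *LTF* difference had an adjusted p of 0.0372. The replicate block was run on *LTF* and *HBB* within sources and on the counts below, and not on single list genes.

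Genes called numbered 1746 by normexp for B against MP (2749 as reported), 1488 by normexp and 426 with the slide block for pDC against XCR1- DC (2293), 520 by normexp and 496 with source as the group for spleen against blood (1145), and 2215 by normexp and 2512 in the series table for culture (3844). Granule genes called higher in culture stayed at 4 to 5. Another probe could not be tried, since each gene has 1. Signal over background limits *HBB* outside blood, which has only a bound.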
